A study of Mus musculus with 29 samples.

Results

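The miR-193, miR-365 and miR-455 microRNAs (miRNAs) of brown fat were followed through the small RNA of gonadal white adipose tissue (gWAT). The members were the rows of the deposited count table named mmu-miR-193b-3p, mmu-miR-193a-3p, mmu-miR-193a-5p, mmu-miR-365-3p, mmu-miR-455-5p and mmu-miR-455-3p, written below without the prefix for mouse. Each of these 6 names had a mature and a hairpin row, which gave 12 of the 3097 miRNA rows in the table. All 12 had a mean count above 10 per library and were tested. The tissue came from female New Zealand Obese (NZO/HIBomDife) mice, an inbred strain in which a share of the females becomes diabetic on a high-fat diet. All mice had been fed that diet and were sampled at 10 weeks of age, before hyperglycemia. They had been sorted by a risk score into 15 diabetes-prone (DP) mice, which turn hyperglycemic later, and 14 diabetes-resistant (DR) mice, which keep normal blood glucose for most of their lives. The DR mice are the control group. Both groups share strain, sex, diet and age, so they differ by the score and not by an allele.

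A miRNA is cut from a hairpin-shaped precursor, and either strand of the hairpin (the 5p or the 3p arm) can be loaded onto an Argonaute protein, where its seed, bases 2 to 8, pairs with messenger RNAs and lowers their output. Mouse brown adipocytes, the heat-producing fat cells, switch on the miR-193b and miR-365 hairpins, which lie side by side, under the brown fat regulator Prdm16, and miR-193b favours the brown over the muscle fate by repressing Runx1t1. In mouse fat, miR-455 is induced by cold and promotes brown adipogenesis by repressing Runx1t1, Necdin and Hif1an. Both families are also made outside brown fat, miR-455 in cartilage for example, and miR-193b restrains the chemokine CCL2 in human white adipocytes.

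The mature sequences are shown because they decide which members can share targets and which reads can be assigned to a locus. They were taken from RefSeq on GRCm38.p6, and capitals mark the seed.
miR-193b-3p: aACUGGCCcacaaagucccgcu
miR-193a-3p: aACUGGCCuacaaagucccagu
miR-193a-5p: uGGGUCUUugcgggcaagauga
miR-365-3p: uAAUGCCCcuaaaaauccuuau
miR-455-5p: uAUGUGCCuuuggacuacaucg
miR-455-3p: gCAGUCCAcgggcauauacac

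The miR-193b-3p and miR-193a-3p sequences share the seed ACUGGCC and 19 of 22 bases. Counted from 1 at the 5′ end, with miR-193b-3p first, they differ by C9U, G20A and C21G, all outside the seed. No other mature mouse miRNA in RefSeq has the seed of these arms, of miR-193a-5p, of miR-365-3p or of miR-455-3p, whereas miR-455-5p shares its seed with miR-5129-3p. The hairpins sit in 3 places. Mir193b (chr16:13449523-13449601) and Mir365-1 (chr16:13453840-13453926) lie 4238 bases apart on the plus strand, within the long non-coding RNA gene Gm32817 (chr16:13447952-13476317) and a second one annotated on the same start, Gm53058. A related pair, Mir193a (chr11:79711969-79712034) and Mir365-2 (chr11:79726400-79726511), lies 14365 bases apart. Mir455 (chr4:63256851-63256932) overlaps 0 exons of the collagen gene Col27a1 and lies in an intron of it, between an exon that ends at base 63254741 and the next, which starts at base 63257060. Since miR-365-3p has the same sequence at both of its loci, its reads cannot be assigned to either. The 5p arms can, and the next sequences show them with the seed in capitals.
miR-193b-5p: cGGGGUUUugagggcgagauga
miR-365-1-5p: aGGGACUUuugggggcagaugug
miR-365-2-5p: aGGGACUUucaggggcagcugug

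The miR-365-1-5p and miR-365-2-5p arms share 20 of 23 bases and their seed, and differ by U10C, G11A and A19C, with miR-365-1-5p first. The miR-193b-5p and miR-193a-5p arms share 17 of 22 bases and differ within the seed by G5U and U6C, with miR-193b-5p first. The hairpins of the chromosome 16 pair are shown for the place of their arms, which are in capitals.
Mir193b: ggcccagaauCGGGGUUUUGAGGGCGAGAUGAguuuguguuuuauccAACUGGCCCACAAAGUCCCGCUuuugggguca
Mir365-1: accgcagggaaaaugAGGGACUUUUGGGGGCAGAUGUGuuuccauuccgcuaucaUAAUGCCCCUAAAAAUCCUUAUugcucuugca

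Sequencing depth was much alike, with 24416345 to 27513950 counts per library in the DP and 24266300 to 27662601 in the DR group. Levels are given as CPM, the usual depth-scaled count, here over the tested miRNAs and after scaling between libraries. Library numbers in the labels divide the mice into 10 DP and 6 DR libraries numbered below 200 and 5 DP and 8 DR libraries from 200 on. This division was chosen with earlier results of these data known, and the labels do not say what a library number means, so results are given within both parts. Across 1162 mature and hairpin rows compared with edgeR's quasi-likelihood test, 163 rose and 138 fell in DP mice at an adjusted p under 0.05. The median log2 fold change, DP over DR, was 0.02 over all of them. The p-values measure the spread between the mice of a group.

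Of the 6 mature members, miR-193b-3p and miR-193a-5p were lower in DP than in DR gWAT, miR-455-5p was higher, and miR-193a-3p, miR-365-3p and miR-455-3p did not pass the test. Thus 1 of 6 rose and 2 of 6 fell, where 15.3% of the 574 tested mature miRNAs rose and 11.8% fell. The hairpin rows of the same 3 names passed in the same directions, with 1 of 6 higher and 2 of 6 lower, beside 12.8% higher and 11.9% lower of the 588 tested hairpin rows. With so few members, these shares are a description of the 6 names. In whole tissue, fewer cells that make a miRNA and less of it per cell cannot be told apart.

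The most abundant member was miR-193b-3p, which in mouse brown precursors represses the muscle programme. Its level lay between 79.5 and 151 CPM in DP mice, with a median of 129, against 120 to 440 CPM in DR mice, with a median of 198. All 15 DP mice lay below the DR median and 7 of them below the lowest DR mouse, while 11 of 14 DR mice lay above the highest DP mouse. The means were 118 ± 26.4 CPM in DP (SD, n = 15) and 208 ± 81.3 CPM in DR (SD, n = 14). The log2 fold change was -0.82 (SE 0.16, adjusted p = 1.5e-04), a DP to DR ratio of 0.566. A single DR mouse at 440 CPM stood well above the others, and leaving out any 1 library gave log2 fold changes from -0.89 to -0.71, each past the threshold.

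The 2 parts of the library numbers differed in how far the groups were separated. Below 200, miR-193b-3p reached at most 151 CPM in DP and at least 183 CPM in DR mice. Such a separation, with every DP below every DR mouse, was found for 2.44% of mature miRNAs there. In these libraries it fell by 1.06 on the log2 scale (adjusted p = 2.9e-04), among 11.1% of mature miRNAs that fell. From 200 on, the ranges were 80.3 to 136 CPM in DP and 120 to 258 in DR mice and overlapped. A log2 fold change of -0.62 there did not pass (adjusted p = 0.121), in a comparison of 5 against 8 mice in which 0.178% of mature miRNAs fell. With the division at 200 as a term of the fit over all mice, the value was -0.90 (adjusted p = 1.2e-05). With library number as a linear term it was -0.88 (adjusted p = 1.7e-05). Whether the difference itself varied between the parts was not tested.

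The hairpin row named for miR-193b-3p moved with the mature row. It held 49.95 to 107 CPM in DP and 72.9 to 292 in DR mice (log2 fold change -0.83, SE 0.16, adjusted p = 2.2e-04). The other arm, miR-193b-5p, was far scarcer, with 0.880 to 6.57 CPM in DP and 4.72 to 11.9 in DR mice. Its medians were 3.67 and 7.19 CPM in DP and DR mice, and 9 of 15 DP mice lay below the lowest DR mouse. It fell by 0.88 on the log2 scale (SE 0.21, adjusted p = 0.0018), and its hairpin row fell by 0.70 (SE 0.22, adjusted p = 0.016). All 4 rows of the miR-193b hairpin were thus lower in DP gWAT. In the libraries from 200 on, the values of the 5p arm were -0.39 for the mature and -0.15 for the hairpin row, and neither passed (adjusted p = 0.233 and 0.758).

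**Figure D1:**
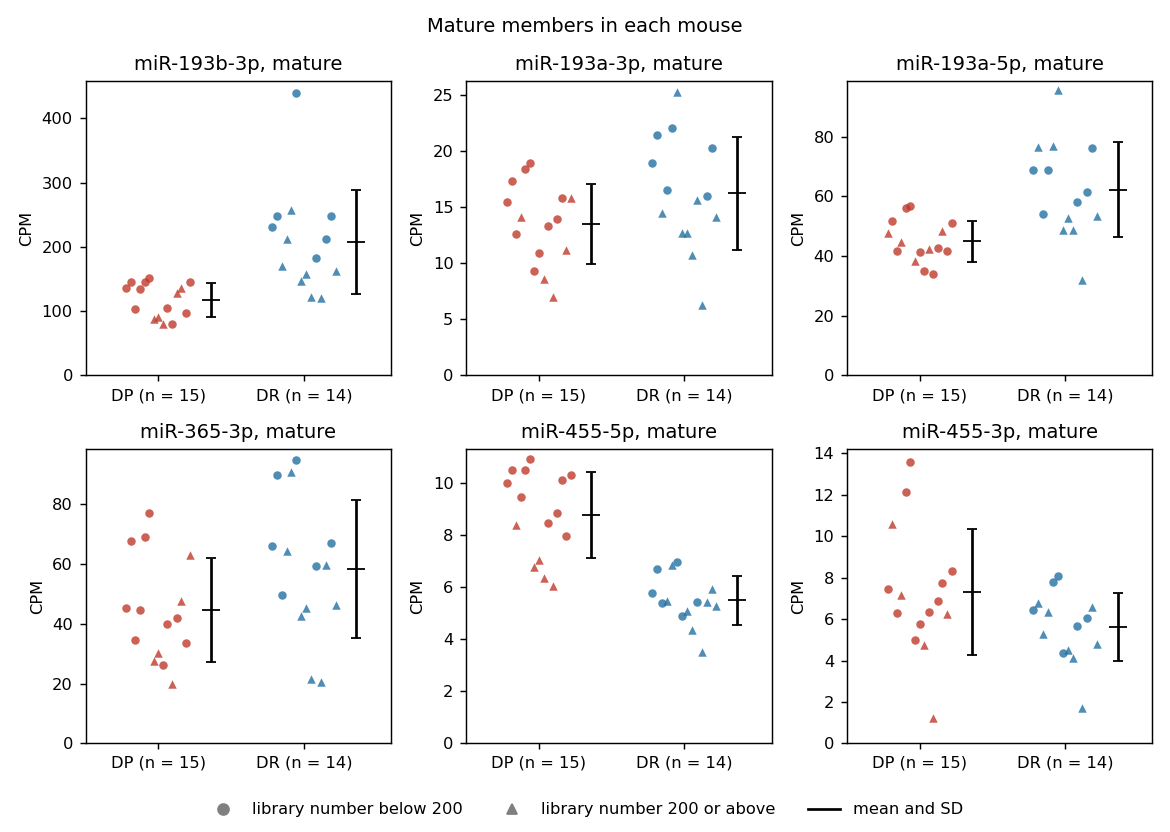
Level of the 6 mature members in each mouse, in CPM on a linear axis, with 15 DP mice (red) left of 14 DR mice (blue). Circles are libraries numbered below 200 and triangles those from 200 on. Black bars show mean and SD, and for miR-455-5p most DP points lie above the highest DR point, while for miR-193b-3p most DR points lie above the highest DP point.

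The miR-193a hairpin, on chromosome 11, gave the reverse order of its arms among the mature rows, with a mean of 53.3 CPM for the 5p and 14.8 CPM for the 3p arm over all mice. Among the hairpin rows the 3p name was the more abundant, with 121.8 CPM against 84.8 CPM for the 5p name. The level of miR-193a-5p was 34.1 to 56.8 CPM in DP mice, with a median of 42.6, against 32.1 to 95.5 CPM in DR mice, with a median of 59.7. All 15 DP mice lay below the DR median, but the lowest mouse of all was a DR mouse, so the ranges overlapped. The means were 44.9 ± 6.94 CPM in DP and 62.3 ± 16.01 CPM in DR (SD), and the arm fell by 0.47 on the log2 scale (SE 0.11, adjusted p = 0.0019). Its hairpin row fell by 0.41 (SE 0.11, adjusted p = 0.0039). Below 200 the mature arm differed by -0.51 (adjusted p = 0.0045), and from 200 on by -0.39, which did not pass (adjusted p = 0.371).

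The 3p arm, miR-193a-3p, carries the seed of miR-193b-3p, so both can pair with the same sites. It held 7.01 to 18.9 CPM in DP mice (median 13.9) and 6.27 to 25.3 CPM in DR mice (median 15.8), and the groups overlapped over nearly the whole range. The log2 fold change was -0.26 with a 95% interval from -0.58 to 0.05 (adjusted p = 0.236), and that of its hairpin row was -0.19 (95% interval -0.44 to 0.07, adjusted p = 0.293). Neither value passed, and both intervals include a change of the size seen in the same kind of row for miR-193a-5p. Reads of the common seed, the sum of both 3p arms, came to 131 ± 28.0 CPM in DP and 224 ± 84.4 in DR mice (SD), and all 15 DP mice lay below the DR median. Of that sum miR-193b-3p made up 83.6% to 93.6% in DP and 88.5% to 96.2% in DR mice.

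The level of miR-365-3p, the partner of miR-193b in the brown fat cluster, varied more between mice than that of miR-193b-3p in DP gWAT. It lay between 19.8 and 77.2 CPM in DP mice, with a median of 41.8, against 20.5 to 94.7 CPM in DR mice, with a median of 59.4. Of the DP mice, 11 lay below and 4 above the DR median, and the ranges overlapped almost in full. The coefficient of variation was 39.1% in DP and 39.6% in DR mice, against 22.4% in DP and 39.1% in DR for miR-193b-3p. The log2 fold change was -0.39 (SE 0.21, 95% interval -0.81 to 0.03, adjusted p = 0.182) in the mature and -0.36 (SE 0.18, adjusted p = 0.155) in the hairpin row. The value of miR-193b-3p, -0.82, lies just outside the interval of the mature row, but has an error of its own (SE 0.16). The ratio of miR-193b-3p to miR-365-3p within a library did not pass (permutation test, adjusted p = 0.091). In the libraries numbered below 200 alone, the hairpin row passed with -0.52 (adjusted p = 0.041, where 9.73% of hairpin rows fell) and the mature row did not (-0.56, adjusted p = 0.067).

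The 5p arms separate the loci of miR-365, and most of the 5p reads came from chromosome 11. They do not place the reads of miR-365-3p. The scarce miR-365-1-5p, from the hairpin beside Mir193b, reached 0.0800 to 0.829 CPM in DP and 0.219 to 1.29 in DR mice, a mean of 11.6 counts per library. The miR-365-2-5p arm held 5.92 to 24.1 CPM in DP and 8.85 to 26.3 in DR mice. Pooled over all libraries, 335 of the 9642 counts of both arms came from miR-365-1-5p, and its share per library was 3.06% ± 1.13 in DP and 3.66% ± 1.39 in DR mice (SD). Neither arm passed, with log2 fold changes of -0.45 for miR-365-1-5p (SE 0.30, adjusted p = 0.285) and -0.18 for miR-365-2-5p (SE 0.18, adjusted p = 0.499). The 95% interval of miR-365-1-5p was wide, from -1.03 to 0.14 on the log2 scale, and included 0.

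In the opposite direction, miR-455-5p was higher in DP gWAT. It lay between 6.06 and 10.9 CPM in DP mice, with a median of 8.85, against 3.52 to 6.98 CPM in DR mice, with a median of 5.42. All 15 DP mice lay above the DR median, 12 of them above the highest DR mouse, and 11 of 14 DR mice lay below the lowest DP mouse. The means were 8.79 ± 1.65 CPM in DP and 5.50 ± 0.943 CPM in DR (SD). It rose by 0.67 on the log2 scale (SE 0.10, adjusted p = 8.4e-06), a ratio of 1.595. The hairpin row, at 57.3 to 96.5 CPM in DP and 45.4 to 64.6 in DR mice, rose by 0.50 (SE 0.07, adjusted p = 8.0e-06), and 13 of 15 DP mice lay above the highest DR mouse.

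Below library number 200, miR-455-5p separated the groups, with at least 7.97 CPM in DP and at most 6.98 CPM in DR mice. For 6.1% of mature miRNAs every DP mouse lay above every DR mouse in these libraries. There it rose by 0.73 on the log2 scale (adjusted p = 9.1e-05), among 17.8% of mature miRNAs that rose. From 200 on the levels were 6.06 to 8.39 CPM in DP and 3.52 to 6.84 in DR mice, and the difference of 0.46 did not pass (adjusted p = 0.107), where 1.42% of mature miRNAs rose. DP mice numbered from 200 on had less miR-455-5p (median 6.76 CPM) than those below 200 (median 10.1 CPM), while the DR medians were 5.34 and 5.61 CPM in the same order. With the division at 200 as a term, the difference over all mice was 0.58 (adjusted p = 9.0e-06). With library number as a linear term it was 0.62 (adjusted p = 6.6e-06).

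The 3p arm of the same hairpin, miR-455-3p, spread much more widely. Its level was 1.23 to 13.6 CPM in DP mice (median 6.89) and 1.72 to 8.08 CPM in DR mice (median 5.86). The DP group held both the highest and the lowest mouse, with 11 of 15 above the DR median and 4 above the highest DR mouse. The log2 fold change was 0.38 (SE 0.22, 95% interval -0.05 to 0.81, adjusted p = 0.202) in the mature and 0.41 (SE 0.23, adjusted p = 0.179) in the hairpin row. Without DP mouse 13, the lowest of all at 1.23 CPM, the hairpin row passed with 0.48 (adjusted p = 0.037), whereas leaving out any other library changed no call of the members.

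**Figure D2:**
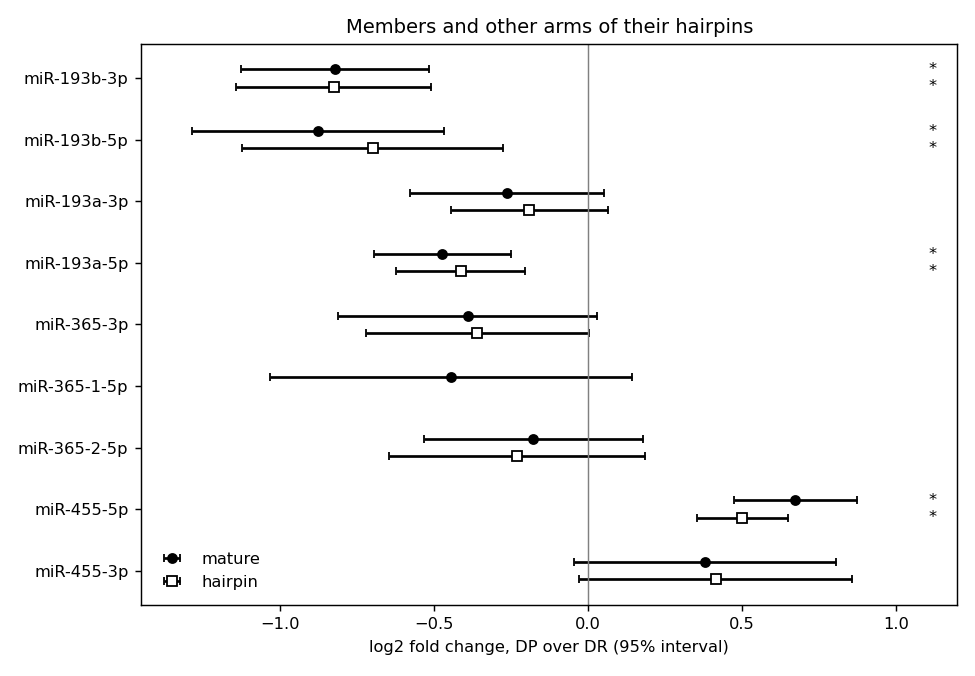
Log2 fold change, DP over DR, of the 6 members and of the other arms of their hairpins, with 95% intervals from edgeR. Filled circles are mature and open squares hairpin rows, an asterisk marks an adjusted p under 0.05, and the hairpin row of miR-365-1-5p, with a mean count of 9.41, was not tested. Rows of miR-193b and miR-193a-5p lie left of 0 and those of miR-455-5p right of it, and the intervals of all other rows include 0.

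Ratios within a library do not depend on the scaling between libraries, and 13 of them were compared with two-sided permutation tests and Benjamini-Hochberg adjustment over the 13. A single ratio passed. The ratio of miR-193b-3p to miR-193a-3p, the members with the common seed, was 5.10 to 14.5 in DP mice, with a median of 9.16, against 7.67 to 24.9 in DR mice, with a median of 11.7. In 14 of 15 DP mice it lay below the DR median, and the mean log2 ratio was 3.14 ± 0.40 in DP and 3.67 ± 0.44 in DR (SD), a difference of -0.53 (permutation test, p = 0.0014, adjusted p = 0.018). Relative to its seed mate in the same library, miR-193b-3p was thus lower in DP mice. The difference was -0.62 below 200 and -0.40 from 200 on (p = 0.018 and 0.079 from unadjusted permutation tests).

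Against its chromosome 16 neighbour family, miR-193b-3p also stood lower in DP mice, but not past the adjusted threshold. The ratio of miR-193b-3p to miR-365-3p had medians of 2.89 in DP and 3.44 in DR mice and a mean log2 difference of -0.41 (SE 0.16, permutation test, p = 0.019, adjusted p = 0.091). The 5p to 3p ratio of miR-455 was 0.573 to 6.72 in DP (median 1.41) and 0.555 to 2.51 in DR mice (median 1.06), a difference of 0.36 on the log2 scale (SE 0.26, permutation test, adjusted p = 0.583). Without DP mouse 13, which had the highest ratio, the difference was 0.20. Thus miR-455-5p passed and miR-455-3p did not, but a difference between the arms was not shown. The same held for the arms of miR-193a, with a difference of -0.20 (SE 0.20, permutation test, adjusted p = 0.702), and -0.075 without DR mouse 13. Both arms of miR-193b passed, and their ratio differed by -0.24 (SE 0.28, permutation test, adjusted p = 0.702), or by -0.10 without DP mouse 7, -0.14 without DP mouse 4 and -0.16 without DR mouse 13.

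Hairpin and mature rows of a name were in steady proportion for some members and not for others. For miR-193b-3p the hairpin row held 0.594 to 0.706 times the mature counts in DP and 0.592 to 0.714 times in DR mice. For miR-193a-3p the factor was 2.62 to 15.3 in DP and 4.80 to 21.9 in DR mice. The hairpin row of miR-455-5p held 6.74 to 10.5 times the mature counts in DP and 7.87 to 13.4 times in DR mice, a log2 difference of -0.17 that did not pass (SE 0.07, permutation test, p = 0.021, adjusted p = 0.091). How reads were divided between mature and hairpin rows is not given in the sources used here.

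**Figure D3:**
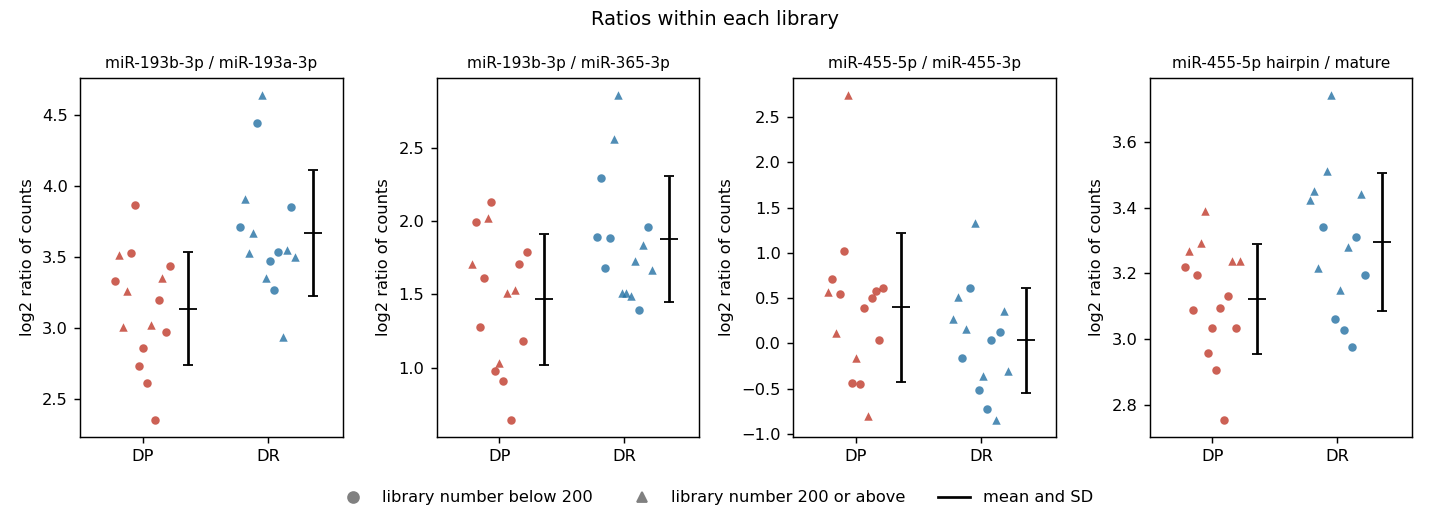
Log2 ratio of counts within each library, DP mice (red) left of DR mice (blue), for miR-193b-3p over miR-193a-3p, miR-193b-3p over miR-365-3p, miR-455-5p over miR-455-3p, and the hairpin over the mature row of miR-455-5p. Circles are libraries numbered below 200, triangles those from 200 on, and bars show mean and SD. In the leftmost panel the DP mean of 3.14 lies below the DR mean of 3.67, and the other panels overlap more.

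Whether the members varied together from mouse to mouse was tested on log2 CPM after the mean of each group had been taken off, over 29 libraries and 15 pairs of mature members. Of these, miR-193b-3p and miR-365-3p followed each other (Pearson r = 0.714, permutation p = 1e-05, the smallest possible, and Spearman rho = 0.712, permutation p = 2e-05, adjusted p = 1.5e-04 and 3.0e-04). Leaving out the 2 libraries farthest from the median gave 0.737. Within the groups it was 0.623 in DP and 0.776 in DR mice, and it was 0.505 below library number 200 and 0.801 from 200 on. The relation of miR-193b-3p with miR-193a-5p was of like size (r = 0.683, permutation p = 2.7e-04, rho = 0.694, permutation p = 1.2e-04, adjusted p = 0.0013 and 8.0e-04), with 0.631 without the farthest 2 libraries, 0.764 below 200 and 0.733 from 200 on.

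Other pairs depended more on the libraries. Between miR-193a-3p and miR-365-3p, r was 0.744 (permutation p = 4e-05, rho = 0.676, permutation p = 1.6e-04, adjusted p = 3.0e-04 and 8.0e-04), and 0.614 without the 2 farthest libraries, but 0.278 below library number 200 and 0.880 from 200 on. For miR-193b-3p with miR-193a-3p the pooled r of 0.557 (permutation p = 0.0032, rho = 0.603, permutation p = 9.0e-04, adjusted p = 0.0096 and 0.0034) went with 0.611 without the 2 farthest libraries and with 0.179 below 200 and 0.628 from 200 on. The arms of miR-455 did not follow each other (r = 0.076, permutation p = 0.720, rho = 0.011, permutation p = 0.955, adjusted p = 0.772 and 0.955), with 0.236 without the 2 farthest libraries, -0.254 below 200 and -0.168 from 200 on. Instead miR-455-3p followed miR-365-3p (r = 0.603, permutation p = 3.4e-04, rho = 0.589, permutation p = 0.0012, adjusted p = 0.0013 and 0.0035), with 0.514 without the 2 farthest libraries, and r was 0.538 within each part of the library numbers.

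Arms that name a single locus were compared in the same way over 14 pairs. The neighbours on chromosome 16, miR-193b-5p and miR-365-1-5p, correlated with r = 0.738 (permutation p = 1e-05, the smallest possible, rho = 0.706, permutation p = 2e-05, adjusted p = 2.3e-05 and 5.6e-05), and with r = 0.636 without the 2 farthest libraries, although miR-365-1-5p rested on few counts. The coefficient was 0.796 below 200 and 0.465 from 200 on. The lowest DP mouse was DP mouse 7 for both arms and also for miR-365-2-5p of chromosome 11. Pairs of either arm with miR-365-2-5p were not among the 14, so whether the relation is particular to the neighbours was not tested. Summed, these 5p arms of chromosome 16 came to 4.47 ± 2.00 CPM in DP and 7.99 ± 2.09 in DR mice, and those of chromosome 11 to 58.6 ± 8.11 CPM in DP and 77.8 ± 15.2 in DR mice (SD). All 15 DP mice lay below the DR median in both sums. Each sum was mostly a miR-193 arm, with DP means of 4.02 CPM for miR-193b-5p and 44.9 CPM for miR-193a-5p. On their own, miR-365-1-5p had 10 and miR-365-2-5p had 8 of 15 DP mice below the DR median, and neither passed. Over all libraries the 3p arm of miR-193b followed neither of the chromosome 16 5p arms past the test. The arms of the miR-193b hairpin had a coefficient near 0 (r = -0.0083, permutation p = 0.962, rho = -0.034, permutation p = 0.855, adjusted p = 0.962 and 0.855, and r = -0.0011 without the 2 farthest libraries), although r was 0.391 below 200 and 0.226 from 200 on. Between miR-193b-3p and miR-365-1-5p, r was -0.157 (permutation p = 0.423, rho = -0.217, permutation p = 0.271, adjusted p = 0.493 and 0.305), with -0.215 without the 2 farthest libraries, 0.326 below 200 and -0.113 from 200 on. The arms of miR-365 ran against each other, with r = -0.705 between miR-365-3p and miR-365-2-5p (permutation p = 1e-05, rho = -0.661, permutation p = 1.8e-04, adjusted p = 2.3e-05 and 3.6e-04) and r = -0.652 without the 2 farthest libraries. That coefficient was -0.625 below 200 and -0.692 from 200 on. Against miR-365-2-5p, miR-193b-3p had r = -0.471 and rho = -0.610 (permutation tests, adjusted p = 0.012 and 9.4e-04), with -0.091 below 200 and -0.580 from 200 on. For miR-193a-3p, r was -0.473 and rho -0.482 (permutation tests, adjusted p = 0.013 and 0.016), with -0.039 below 200 and -0.539 from 200 on.

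**Figure D4:**
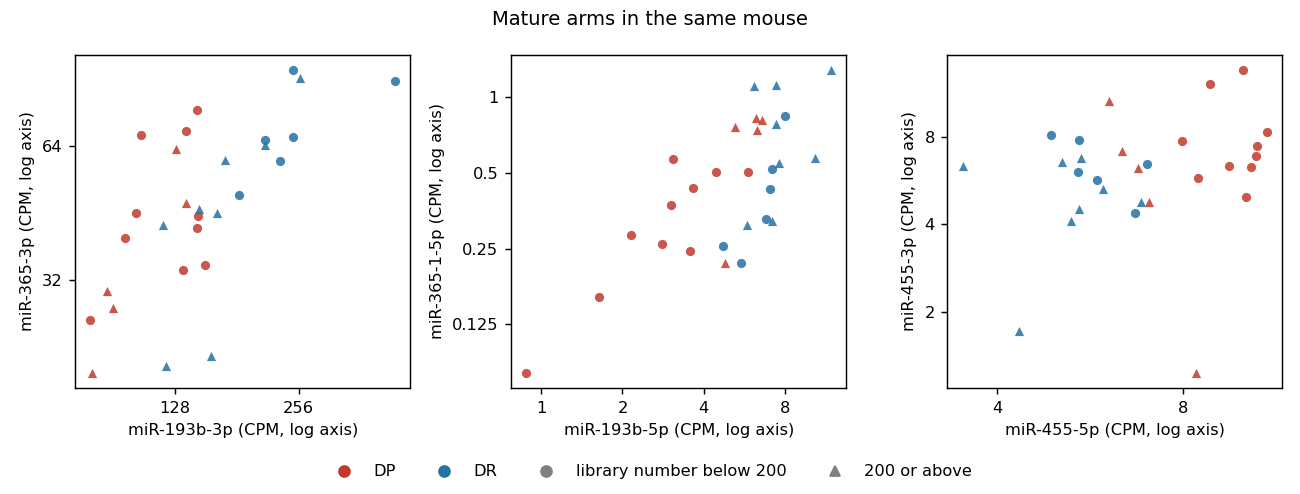
Level of pairs of mature arms in the same mouse, in CPM on log axes, DP mice in red and DR mice in blue, circles for library numbers below 200 and triangles from 200 on. The pairs miR-193b-3p with miR-365-3p and miR-193b-5p with miR-365-1-5p rise together, with r of 0.714 and 0.738 after the group means were taken off, and the arms of miR-455 do not, with r of 0.076.

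The hairpins of miR-193b and miR-365-1 lie within Gm32817, and the promoter of this gene is shown. The window of 300 bases around the annotated start of Gm32817 (chr16:13447702-13448001, plus strand, RefSeq on GRCm38.p6) ends 1521 bases before Mir193b, and capitals mark GC boxes, GGGCGG or its reverse complement.
Gm32817 promoter: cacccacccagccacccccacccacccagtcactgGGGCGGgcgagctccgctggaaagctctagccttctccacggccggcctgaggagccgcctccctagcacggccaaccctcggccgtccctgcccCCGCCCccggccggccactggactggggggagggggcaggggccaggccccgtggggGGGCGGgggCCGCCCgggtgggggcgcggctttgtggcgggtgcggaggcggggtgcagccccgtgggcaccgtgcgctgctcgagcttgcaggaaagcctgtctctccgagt

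The window was 76.7% G and C, against a median of 52.7% over 32817 mouse promoter windows of the same length. It held 4 GC boxes, a motif present on either strand in 35.6% of those windows. The nuclear receptor half-site AGGTCA, the CCAAT box (CCAAT) and the E-box (CANNTG) had 0 matches on both strands, and are present in 16.3%, 37.4% and 72.3% of windows. The matches describe the letters of this window and are not binding sites.

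The miRNAs most like each member across mice were sought among 265 mature miRNAs with at least 10 CPM. The measure was the Pearson r of log2 CPM with group means taken off over 29 libraries. Differences between the parts of the library numbers were not taken off, and DP mice differed in miR-455-5p between these parts. The nearest miRNAs differed between the members. For miR-455-5p they were miR-21a-5p (0.777), a miRNA of macrophages and of fibrosis, miR-381-3p (0.744), and miR-199a-5p (0.738), a miRNA of mesenchymal cells. All 3 rose in DP mice, by 0.74, 0.22 and 0.54 on the log2 scale, where 15.3% of the tested mature miRNAs rose. For miR-193b-3p they were miR-365-3p (0.714), miR-186-5p (0.693) and miR-193a-5p (0.683), and for miR-193a-5p they were miR-203-5p (0.694), miR-181c-5p (0.686) and miR-193b-3p (0.683). By contrast, miR-193a-3p and miR-365-3p were most like the miR-29 family. For miR-193a-3p these were miR-29c-3p (0.834), miR-29b-3p (0.827) and miR-29a-3p (0.762), and for miR-365-3p miR-29a-3p (0.890), miR-30c-5p (0.848) and miR-29c-3p (0.842). Nearest to miR-455-3p were miR-30c-5p (0.657), miR-1249-3p (0.627) and miR-365-3p (0.603). A shared direction between a member and its nearest miRNAs was not general. Those of miR-193a-5p fell as it did, but miR-186-5p beside miR-193b-3p did not pass. Beside miR-455-3p, which did not pass, miR-30c-5p fell by 0.70 on the log2 scale.

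Other miRNAs with a known role in brown or beige fat were set beside the members. Of 12 that favour this fate, 6 fell, 1 rose and 5 did not pass, and their median log2 fold change was -0.19, against 0.02 over all tested mature miRNAs. Over all 574 tested mature miRNAs, 11.8% fell and 15.3% rose. Those with the smallest p were miR-203-3p at -0.46 (SE 0.07, adjusted p = 4.4e-06), miR-26a-5p, which favours brown-like human fat cells, at -0.33 (SE 0.06, adjusted p = 5.6e-05), miR-378a-3p, which expands brown fat in mice, at -0.44 (SE 0.09, adjusted p = 2.4e-04), and miR-129-5p, the exception, at 0.81 (SE 0.18, adjusted p = 7.0e-04). Of 14 that restrain the fate, 12 were tested, 2 rose, 0 fell and 10 did not pass in edgeR's quasi-likelihood test, with a median of 0.05. At an unadjusted p under 0.05, or by DESeq2, limma-voom or edgeR's exact test, 0 fell as well. The exact test called 1 riser in this list, without let-7i-5p (adjusted p = 0.125), and 5 in place of 6 fallers in the favouring list, without miR-196a-5p (adjusted p = 0.079). By the quasi-likelihood test, 2 risers of 12 is near the share of 15.3% over all tested mature miRNAs. The risers were miR-27b-3p, a repressor of Prdm16, at 0.38 (SE 0.07, adjusted p = 2.0e-04) and let-7i-5p at 0.18 (SE 0.06, adjusted p = 0.041). Its relative miR-27a-3p, at 0.23 (SE 0.12, adjusted p = 0.150), and miR-133a-3p, a muscle miRNA that represses Prdm16, at -0.87 (SE 0.49, adjusted p = 0.193), did not pass. Thus miR-193b-3p and miR-193a-5p had the direction of the 6 favouring miRNAs that fell, and miR-455-5p had that of miR-129-5p. The lists were written with earlier results of these data known, and some of their miRNAs share a family.

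**Figure D5:**
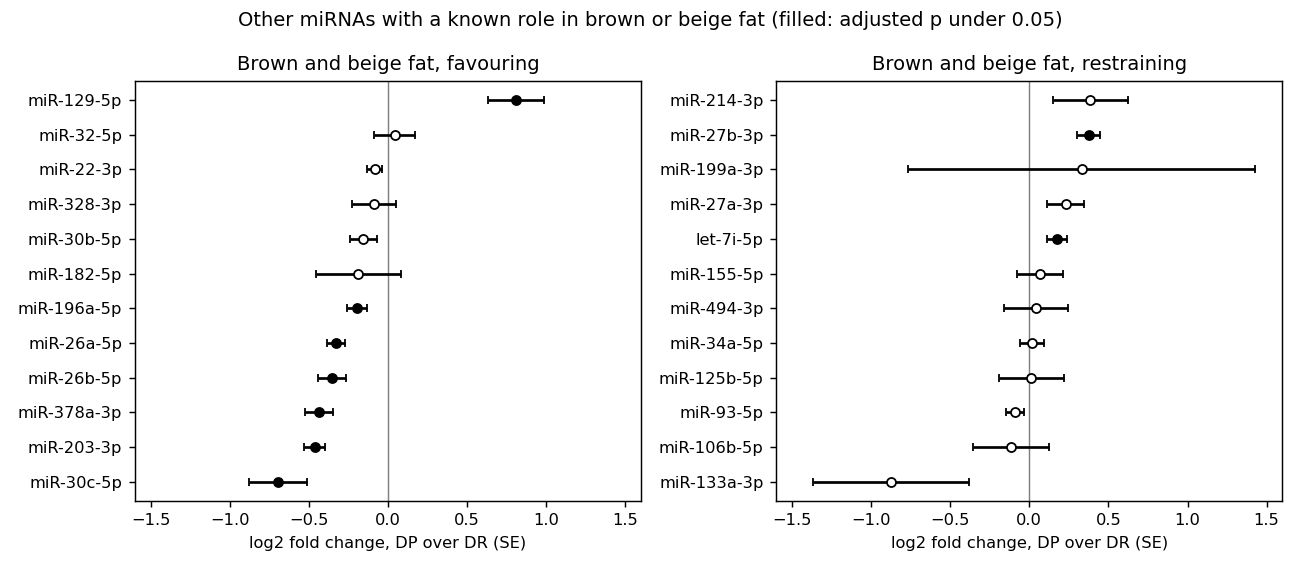
Log2 fold change, DP over DR, with standard errors, of 12 miRNAs known to favour (left) and 12 tested miRNAs known to restrain (right) brown or beige fat, members left out. Filled points have an adjusted p under 0.05, and 6 filled points lie left of 0 and 1 right of it in the left panel, against 2 right of 0 in the right panel.

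Markers of several cell types moved between the groups beside the members, and their part in the results was not tested. Over all 574 tested mature miRNAs, 15.3% rose and 11.8% fell. Of 7 myeloid miRNAs 6 rose and 1 did not pass, and their summed level was 17640 to 36065 CPM in DP and 13346 to 20740 in DR mice. Most of this sum was miR-21a-5p, also a miRNA of fibrosis, with a mean of 23243 CPM in DP and 13913 in DR mice. Among the 7 myeloid miRNAs, miR-21a-5p rose by 0.74, miR-146b-5p by 0.74, miR-142a-3p, made in blood cells, by 0.86, and miR-223-3p by 0.39. Of 8 adipocyte miRNAs 3 fell and 5 did not pass, with sums of 21719 to 31233 CPM in DP and 29588 to 43536 in DR mice. The 3 that fell were miR-204-5p at -0.68, miR-143-3p at -0.47 and miR-335-5p at -0.89, and DESeq2 and edgeR's exact test also called miR-107-3p higher. The adipocyte sum was mostly miR-143-3p, which averaged 23977 CPM in the DP and 33145 CPM in the DR group. Its opposite arm was placed in the list of fibroblasts and smooth muscle, so this sum cannot be assigned to adipocytes alone. Of 3 endothelial miRNAs 2 fell, miR-126a-3p at -0.28 and miR-126a-5p at -0.33, with sums of 55457 to 79501 CPM in DP and 69424 to 99174 in DR mice. By 2 other tools miR-126a-5p did not pass, limma-voom (adjusted p = 0.053) and edgeR's exact test (adjusted p = 0.056).

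In the lists for other cells, either calls went both ways or no miRNA passed. Of 5 miRNAs of fibroblasts and smooth muscle, there were rises of miR-199a-5p by 0.54 and of miR-214-5p by 0.60, and miR-145a-5p fell by 0.60 on the log2 scale, while DESeq2 also called miR-145a-3p lower, and sums were 1321 to 2203 CPM in DP and 1136 to 2337 in DR mice. Of 3 lymphocyte miRNAs miR-342-3p and miR-342-5p rose, by 0.88 and 0.70, and miR-150-5p fell by 0.49, with sums of 4582 to 6829 CPM in DP and 5124 to 8632 in DR mice. Of 6 epithelial miRNAs 2 rose and 1 fell, with sums of 44.2 to 151 CPM in DP and 48.5 to 67.2 in DR mice. Both cartilage miRNAs were measured, since cartilage makes miR-455, and neither passed in edgeR's quasi-likelihood test, at an unadjusted p under 0.05, or by DESeq2, limma-voom or edgeR's exact test. Their log2 fold changes were 0.07 for miR-140-5p (SE 0.06, adjusted p = 0.437) and 0.05 for miR-140-3p (SE 0.09, adjusted p = 0.752), and sums were 303 to 435 CPM in DP and 274 to 401 in DR mice. Of 3 tested skeletal muscle and 4 red cell miRNAs 0 passed in the quasi-likelihood test and by the other 3 tools, and at an unadjusted p under 0.05 only 1 red cell miRNA was lower in each of the 4. The summed level of the skeletal muscle miRNAs was 9.80 to 343 CPM in DP and 20.0 to 706 in DR mice, and that of the red cell miRNAs 9644 to 22148 CPM in DP and 12385 to 22209 in DR mice. No tested marker of these lists was at 0 in any library.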

How the data were processed

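Small RNA of gWAT was sequenced on a BGISEQ-500 instrument from 15 DP and 14 DR mice, 1 library per mouse. The authors used miRDeep2 for annotation, per the study's methods, and Bowtie2 and the build mm10 are listed in the submitters' processing notes. The deposited values are raw read counts per annotated small RNA, and replicates were not pooled. The treatment of multi-mapping reads is not given in the sources used here. The 4 entries that name no RNA (6.89% to 12.1% of counts) were left out, and reads have no molecular identifiers. Libraries held 24266300 to 27662601 counts.

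After removal of rows with a mean count of 10 or less, libraries were scaled by TMM and compared with edgeR 4.0.16 (R 4.3.3) by the quasi-likelihood F-test without covariates, with Benjamini-Hochberg adjustment over 1162 mature and hairpin rows and a threshold of 0.05. The standard error is the log2 fold change divided by the root of F. Ratios used counts plus 0.5. Permutation tests were two-sided with 100000 permutations, within groups for correlations. The miRNAs named are the members, the other arms of their hairpins, at most 4 of each list with the smallest p, and the 3 most like each mature member. The members and lists were chosen with earlier results of these data known. On simulated counts, 67 of 100 miRNAs changed by a log2 fold of 0.5, 87 of 100 changed by 1 and 9 of 962 unchanged ones were called. Alternatives were other scalings, filters and tests (DESeq2 1.42.0, limma-voom 3.58.1, edgeR's exact test), mature or hairpin rows alone, library number, and leaving out each library. Sequences and coordinates are from RefSeq on GRCm38.p6, the assembly mm10 denotes, and all 10 mature sequence entries sought were found.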

Additional observations from a re-analysis of the deposited data

How the results depend on the processing

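No paired analysis was possible because the labels give DP and DR mice no shared replicate numbers. The calls of miR-193b-3p, miR-193a-5p and miR-455-5p, mature and hairpin, held with every other scaling, filter and test tried, with library number as a term, in the libraries numbered below 200 and without each single library. In the 5 DP and 8 DR libraries from 200 on, 0 mature and 0 hairpin members rose and 0 fell, and over all miRNAs 17 rose and 2 fell. Values there were -0.62 and -0.66 for the mature and hairpin rows of miR-193b-3p, -0.39 and -0.25 for miR-193a-5p, and 0.46 and 0.36 for miR-455-5p, and whether fewer mice or the libraries themselves ended the calls was not tested. Signs turned there for miR-365-2-5p (0.091 mature, 0.15 hairpin), for the ratio of miR-193b-5p to miR-193b-3p (0.25) and for the hairpin to mature ratios of miR-193b-3p (-0.034), miR-193a-3p (-0.072) and miR-455-3p (-0.080), none of which passed in any setting. Mature rows alone gave 86 higher and 67 lower, hairpin rows alone 73 and 71, since fewer rows were tested. Library totals in place of TMM gave 238 higher and 102 lower, with a median log2 fold change of 0.09 over all rows. Without each library in turn, 149 to 178 rose and 124 to 158 fell, 1 mature member rose and 2 fell in every fit, and 1 to 2 hairpin members rose and 2 fell. The hairpin to mature ratio of miR-193b-3p then ranged from -0.0074 to 0.014 and that of miR-193a-3p from -0.028 to 0.15. Low counts limit miR-365-1-5p, with a mean of 11.6 counts.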

Other observations

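The table also holds family rows for the precursors of mir-193 and mir-365, which were outside the comparison of mature and hairpin rows and were looked at after the data were seen. The mir-193 row held 85.7 to 151 CPM in DP mice, with a median of 104, and 127 to 313 CPM in DR mice, with a median of 188. All 15 DP mice lay below the DR median, and the mean log2 CPM, with 0.5 added to the counts, differed by -0.70 (two-sided permutation test, p = 2e-05, the smallest these permutations give). The difference was -0.90 among libraries numbered below 200 and -0.66 from 200 on. Over all mice, without taking off group means, the mir-193 row closely followed mature miR-193b-3p (Pearson r = 0.971 on log2 CPM). It is therefore no separate support for the fall of miR-193b-3p. The mir-365 row was near the floor, with 0 to 3.40 CPM in DP and 1.499 to 4.53 in DR mice and at most 98 counts in a library. Its means were 1.75 ± 0.925 CPM in DP and 2.67 ± 0.826 in DR mice (SD), and 12 of 15 DP mice lay below the DR median. Since 1 DP library had 0 counts, no log difference is given. Whether these rows hold reads that the mature and hairpin rows also hold is not given in the sources used here.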
